A study of Mus musculus with 8 samples.

Results

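The boundary sequence that lies between Kcnj2 and Sox9 in the mouse was followed as a contact anchor in capture Hi-C maps, in which ligated DNA from a chosen region is enriched and sequenced read pairs are counted as contacts. It was present in 3 libraries. In InvIntra the viewpoint was chr11:111390001-111410000, here called the original site, and in InvC and BorKnockIn it was chr11:112490001-112510000, here called the Sox9-proximal site (deposited coordinates, mm9). Each viewpoint is 2 bins of 10 kb, of 587 bins in a map, and its members are all contacts with the 583 bins that lie at least 20 kb from both of them. The same bins of the other libraries served as controls wherever they held contacts.

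The study used CRISPR/Cas9 to delete, insert or invert CTCF sites and larger pieces of this locus. Fore- and hindlimb buds of E12.5 embryos that were homozygous for an edit were taken, on a G4 embryonic stem cell background, with 3 to 8 embryos per library. The libraries with the boundary were InvIntra, InvC and BorKnockIn. Those without it in the viewpoint were InvC∆Bor and the 4 deletion libraries ∆BorC1, ∆BorC1-2, ∆BorC1-4 and ∆CTCF, all named as the labels name them. The labels give no further description of the alleles and no treatment. The wildtype was not analysed here. Depth ran from 3056502 raw contacts in InvC∆Bor to 9045698 in ∆BorC1-4. No genotype had a second library, which leaves nothing to test. Every interval is a 95% interval for counting error only, and it takes read pairs as independent.

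Mammalian chromosomes are folded into topologically associating domains, stretches within which contact is frequent. Many of their boundaries hold clusters of CTCF sites. CTCF is a DNA-binding protein that stops cohesin, the ring complex that extrudes DNA loops, when the site points towards the oncoming loop. A boundary can therefore appear in a contact map as the end of loops to other CTCF sites and as a stripe, a line of raised contact that runs from the anchor along one side. At this locus Kcnj2 encodes an inward rectifier potassium channel. Sox9 is a transcription factor gene on which cartilage formation depends, and its enhancers lie in the long gene desert between both genes.

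Kcnj2 lies to the left of both sites and is one of the partners described below, so its promoter is shown. It is the RefSeq sequence of chr11:111065914-111066213 (GRCm38.p6, plus strand). These coordinates are not those of the maps, which use mm9 and where Kcnj2 was placed in bin 110920001. The capitals mark GAGGG, which is the core CTCF letters CCCTC read on the other strand.
Kcnj2 promoter: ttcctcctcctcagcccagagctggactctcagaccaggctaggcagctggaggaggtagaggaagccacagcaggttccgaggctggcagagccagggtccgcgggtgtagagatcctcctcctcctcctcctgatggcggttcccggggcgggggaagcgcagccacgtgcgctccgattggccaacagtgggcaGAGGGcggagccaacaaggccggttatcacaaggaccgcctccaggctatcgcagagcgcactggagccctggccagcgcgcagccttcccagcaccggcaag
It holds CCCTC 0 times and GAGGG 1 time in 300 bases. Of 32851 mouse promoters of the same length, 65.95% held either, so this match is common and is only a description.

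Coverage showed how much of the boundary each viewpoint held. The viewpoint had 47950 contacts in InvIntra (0.769% of the library), 34101 in InvC (0.690%) and 43959 in BorKnockIn (0.740%). At the original site the deletion libraries held contacts in the right bin only, 7745 to 15749 of them. In InvIntra the empty stretch of these libraries began 1 bin earlier, since bin 111380001 had 0.191 times the InvIntra share in the median deletion library. At the Sox9-proximal site InvC∆Bor had 0.0106 times the InvC share in bin 112500001, 0.434 times in bin 112510001 and 0.755 times in bin 112490001. The boundary thus covered a bin to the left of the viewpoint in InvIntra and a bin to the right of it in InvC, and both bins are given beside the viewpoint.

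The order of the desert also differed between the maps. Across 95 bins of the desert, coverage in InvC correlated with that of the deletion libraries at 0.90 when the profile was mirrored and at -0.03 at the same position. InvIntra gave 0.84 mirrored and 0.06 at the same position, and InvC∆Bor 0.91 and -0.04. BorKnockIn matched with a shift of 20 kb (0.91). Neighbouring bins are not independent, so these values only place the sequence. A partner inside the desert is therefore named by the position of its sequence in the deletion libraries, and each library is read where its map holds that sequence.

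At the boundary the side of the contacts changed within 2 or 3 neighbouring bins (plot of the left share bin by bin). The bins beside the viewpoint shared these sides, so the shares are not particular to the boundary bins. In BorKnockIn bin 112480001 had 73.9% on the left and bin 112510001 had 25.5%. Bin 112480001 of InvC had 62.9% and bin 111410001 of InvIntra 17.1%. In BorKnockIn the left viewpoint bin placed 68.6% (67.7 to 69.5) of its contacts at 20 to 500 kb on its left, and the next bin only 30.5% (29.7 to 31.3). The controls made no such step: the deletion libraries had 56.4 to 57.3% in the left bin and 57.9 to 58.4% in the right bin.

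In InvC the left bin placed 64.2% (63.1 to 65.3) of its contacts on the left, the right bin 41.1% (40.0 to 42.2), and bin 112510001, which also holds boundary, 24.0% (23.2 to 24.7). InvC∆Bor, which has the same desert order without the boundary, placed 39.2% (37.8 to 40.6) on the left in its only filled viewpoint bin. The left bin of InvC was thus 25.0 points above the same bin of InvC∆Bor, and the interval of either value is narrower than 3 points. These intervals do not cover the gap beside that InvC∆Bor bin. At 20 to 100 kb its raw contact was 1.88 times expected on the right, across the emptied bin, and 1.08 times on the left. The part of the gap in the 25.0 points was not tested. At bin 112460001, further left, the shares were 61.3% in InvC and 46.7% in InvC∆Bor.

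In InvIntra bin 111380001 placed 57.0% (55.9 to 58.1) of its contacts on the left, the left viewpoint bin 30.9% (29.9 to 31.9) and the right viewpoint bin 15.3% (14.6 to 16.0). The last was the lowest left share of the 484 bins measured in that library. In the controls at the original site the 2 bins together gave 52.0% in BorKnockIn, 41.1% in InvC and 41.3% in InvC∆Bor. The right bin alone gave 54.7 to 56.4% in the deletion libraries, where it borders their emptied bin on its left. Bin 111420001, further from that gap, gave 44.5 to 50.6% in them. Every control with contacts there lay above both InvIntra viewpoint bins.

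Summed over the viewpoint the opposite directions partly cancelled. The left share was 22.4% (21.8 to 23.1) in InvIntra, 52.5% (51.8 to 53.3) in InvC and 47.3% (46.7 to 48.0) in BorKnockIn, against 57.5 to 58.0% in the deletion libraries at the Sox9-proximal site. The other controls at that site had 45.6% (44.9 to 46.3) in InvIntra and 39.2% in the left bin of InvC∆Bor, so InvC and BorKnockIn lay inside the range of the controls. For InvC and BorKnockIn the sum is close to 50% and changed side with the choice of bins or distance, so it describes neither bin.

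By the mirror that fits the desert of InvC, bins 111380001 and 111390001 of InvIntra match bins 112510001 and 112500001 of InvC. The first pair differed in side, with a left share of 57.0% in InvIntra and 24.0% in InvC, where the order is turned round. The second pair did not, with 30.9% in InvIntra and 41.1% in InvC. The third pair, bin 111400001 of InvIntra and bin 112490001 of InvC, also differed in side, with 15.3% and 64.2%. By place on the map, the share fell from the left to the right bin in both libraries. Summed over the 3 boundary bins the share was 32.6% in InvIntra and 40.0% in InvC, both leaning to the right. The edge bins also hold some sequence from outside the boundary, and this comparison has 1 library on each side.

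Bins with a strong side are not rare in these maps. Of all other bins, 7.13% in BorKnockIn reached a left share of 65% or more, and 9.22% fell at or under 35%. The BorKnockIn viewpoint had 1 bin in each class. In InvIntra 8.60% of other bins lay at or under 35%, as both viewpoint bins did, and 9.01% at or over 65%, as neither did. In InvC 7.97% lay at or under 35% and 8.18% at or over 65%, and neither viewpoint bin did, although bin 112510001 did. In 209 unedited flank windows the same share ranged over the 8 libraries by a median of 2.47 points and at most 13.25 points. Without BorKnockIn the largest range was 5.18 points.

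**Figure D1:**
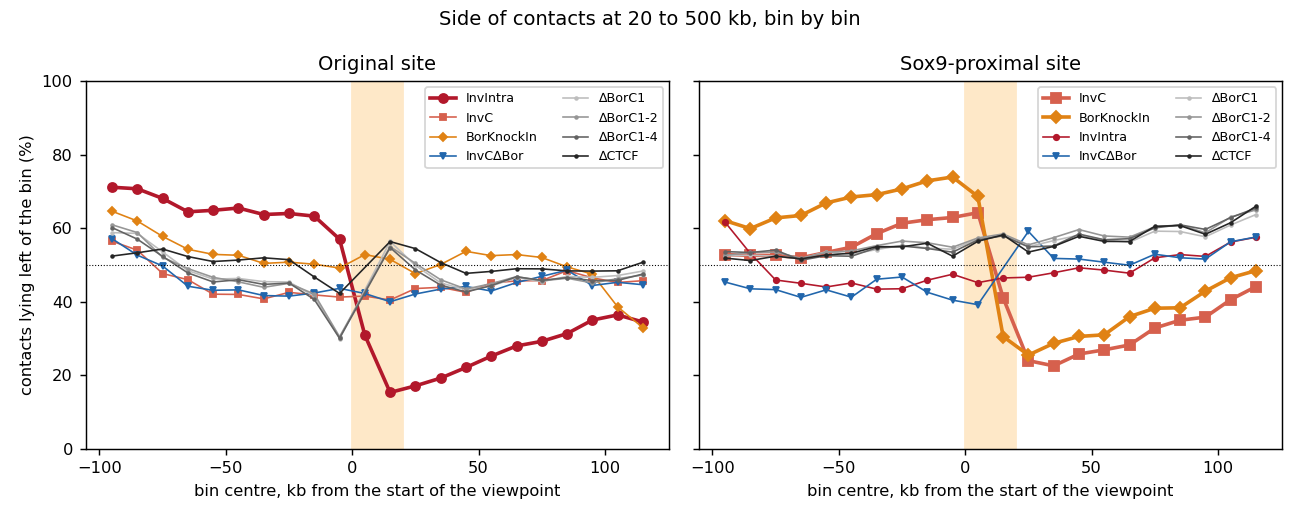
Share of each bin's contacts at 20 to 500 kb that lay on its left (vertical axis, percent) against the bin's place from the start of the viewpoint (horizontal axis, kb), 1 line per library, with the viewpoint shaded. The libraries with the boundary (thick lines) drop steeply across the shaded bins, to 15.3% in InvIntra and 30.5% in BorKnockIn, while the deletion libraries at the Sox9-proximal site stay at 56.4 to 58.4% inside it.

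Each boundary also had raised contact along at least 1 side at long range and a gap close by (plot of the viewpoint over its neighbours). The stripe is the balanced (KR) contact over the mean at that distance in the library. It is divided by the same value averaged over bins 40 to 80 kb away on both sides of the viewpoint. At a boundary these neighbours themselves differ in side. In InvIntra bin 111350001 had a left share of 63.7% and bin 111440001 had 25.2%. In ∆BorC1 the same bins had 45.45% and 44.24%. The part of this difference in the ratios was not tested. At 400 to 800 kb the InvIntra viewpoint was 2.01 times its neighbours on the right and 0.583 times on the left. BorKnockIn was 1.62 times on the left and 1.81 times on the right, and InvC 1.56 times and 1.30 times. The right stripe of InvC rested on the right bin, since the left bin alone gave 0.932 times. On the right neither library at the Sox9-proximal site had an even stripe. InvC had 1.51 times at 100 to 200 kb and 0.815 times at 200 to 400 kb, and BorKnockIn 2.06 and 1.12 times. The classes that hold Sox9 and the domain edge were thus the higher ones on that side.

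At the original site the 7 controls had 0.797 to 0.967 times their neighbours on the right in this distance class and 0.808 to 1.02 times on the left. The controls at the Sox9-proximal site also stayed near 1. The deletion libraries were at 0.947 to 0.991 on the left and 0.971 to 1.02 on the right, and InvC∆Bor at 0.872 and 0.844. At 20 to 100 kb the viewpoints with the boundary lay below their neighbours on both sides. InvIntra had 0.697 times its neighbours on the right and 0.356 times on the left, InvC 0.434 and 0.686 times, and BorKnockIn 0.623 and 0.498 times. At the Sox9-proximal site the deletion libraries had 1.04 to 1.13 times over both sides. InvC∆Bor had 0.911 times on the left there and 2.51 times on the right, where its next bin is nearly empty. At the original site the deletion libraries had 2.60 to 4.14 times on the left, beside their emptied bin, and 0.728 to 0.776 times on the right, which is close to InvIntra. The 3 other controls there had 1.08 to 1.25 times on the left and 1.09 to 1.10 times on the right.

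Counted in 50 kb windows out to 1000 kb, the InvIntra viewpoint reached 1.5 times its neighbours in 13 of 18 windows on the right, where 4.47% of the windows of all other viewpoints did so, and in 0 of 18 on the left. BorKnockIn reached it in 7 of 18 on the left and 4 of 18 on the right (background 4.30%), and InvC in 7 and 2 (background 3.84%). Among the controls at both sites, 1 window reached it, on the right of the Sox9-proximal site in InvIntra. Windows of a stripe share the viewpoint and are not independent. Here too the neighbours lie on both sides of the viewpoint, and their part in the counts was not tested.

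**Figure D2:**
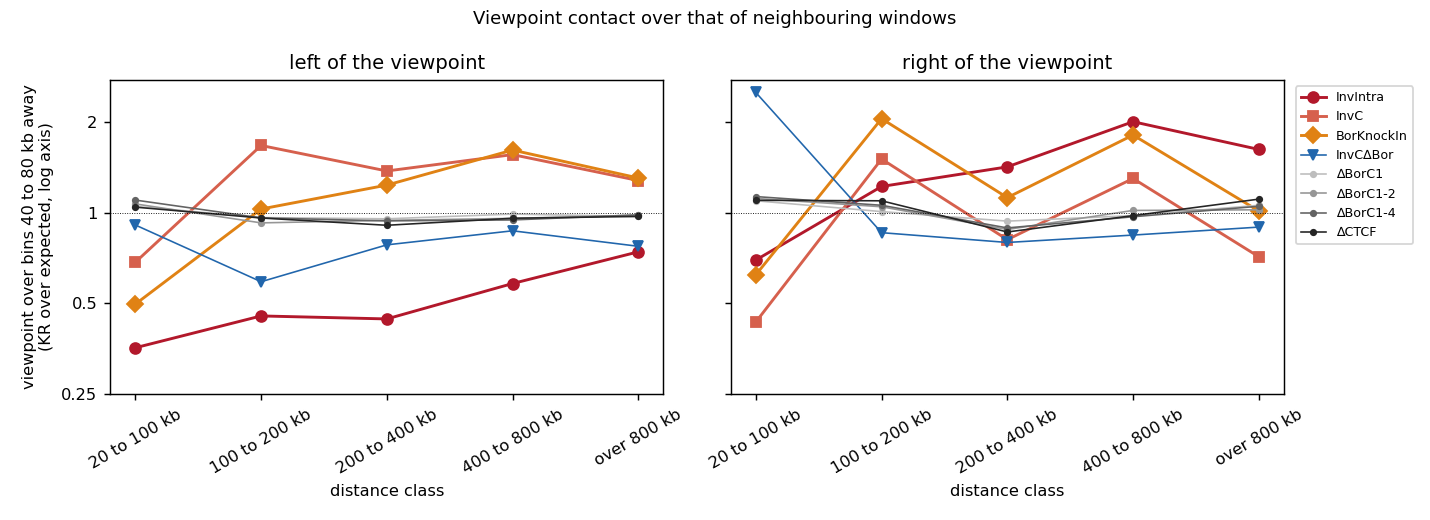
Balanced contact of the viewpoint over that of bins 40 to 80 kb away on both sides (vertical log axis) by distance class (horizontal axis). Contacts left and right of the viewpoint are shown apart, with 1 line per library. InvIntra is at the original site and the others at the Sox9-proximal site. At 400 to 800 kb InvIntra reaches 2.01 on the right and 0.583 on the left, BorKnockIn and InvC lie above 1 on both sides, and the deletion libraries lie between 0.947 and 1.02.

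The contacts of the anchor peaked at a few places (plot of the balanced profile by distance). Contact with a place is given as raw contacts of the viewpoint with a 30 kb window over the mean at that distance in the same library, called contact over expected. The far right edge of the Sox9 domain, at 113.03 Mb, is where contacts of this domain end on the right. The desert site at 111.51 Mb was the highest left window of BorKnockIn, and the far left site at 110.36 Mb that of InvC and InvIntra. The desert site was also among the 3 highest right windows of InvIntra, and the far left site among the 3 highest left windows of BorKnockIn. Their values in all the libraries that chose them are descriptions.

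The domain edge was a partner of the boundary in all 3 libraries. In InvIntra the viewpoint had 861 contacts with it over 1630 kb, 12.1 times expected (11.3 to 13.0), against 1.25 to 2.63 times in the 7 other libraries at the same site. BorKnockIn had 1357 contacts with it over 520 kb, 6.71 times expected (6.36 to 7.08), and InvC had 956 over 530 kb, 5.38 times (5.05 to 5.73). The deletion libraries had 149 to 309 contacts there, 0.867 to 1.05 times expected, InvC∆Bor 1.09 times and InvIntra 1.37 times. No control interval at this site reached the InvC or BorKnockIn value. With KR values the edge stood at 9.67 times expected in InvIntra, 5.48 in BorKnockIn and 4.33 in InvC. Against the mean of the unedited flanks InvIntra gave 31.7 times, and at the deposited coordinate, without following its shift, BorKnockIn gave 3.11 times.

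The contact was focal. In single bin pairs, bin 112500001 of BorKnockIn had 674 contacts with bin 113010001, 14.3 times expected after balancing. Bin 111390001 of InvIntra had 322 with bin 113020001, 19.4 times expected, and bin 112500001 of InvC had 411 with the same bin, 10.0 times expected. In BorKnockIn, bin 113010001 holds the sequence that lies at 113020001 in the other maps, because its coordinates to the right of the insertion run 10 kb behind.

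The Sox9 window was above expected in all 3 libraries. The InvIntra viewpoint had 1075 contacts with the Sox9 window over 1240 kb, 11.3 times expected (10.7 to 12.0), against 1.61 to 2.61 times in the 7 controls. From the Sox9-proximal site BorKnockIn had 1605 contacts over 130 kb, 2.83 times expected (2.69 to 2.97), and InvC had 934 over 140 kb, 1.92 times (1.80 to 2.05). The deletion libraries gave 0.872 to 1.07 times, InvC∆Bor 0.895 times and InvIntra 1.30 times. Distances differ between the sites, so the InvIntra value is set only against the original site. It was 6.63 times with coverage in the expectation and 21.7 times against the unedited flanks. At the Sox9-proximal site KR values gave 1.77 times in BorKnockIn and 1.498 times in InvC, against 0.696 to 0.995 times in the controls, and coverage in the expectation gave 1.68 and 1.21 times. In BorKnockIn 1088 of the 1605 contacts lay in bin 112620001, to the left of the bin that holds Sox9. The bin to the left of the Sox9 bin also held the most contacts in InvIntra (496 of 1075) and InvC (453 of 934). After balancing, the Sox9 bin was the higher one in InvIntra, at 12.3 against 9.60 times expected, and in InvC, at 2.02 against 1.63 times. In BorKnockIn the Sox9 bin alone gave 1.07 times raw and 1.48 times after balancing, and the deposited coordinate gave 1.40 times raw.

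Kcnj2 was contacted from the Sox9-proximal site over 1570 kb. InvC had 373 contacts with it, 6.65 times expected (5.99 to 7.36), and BorKnockIn had 231, 4.13 times (3.61 to 4.69). The deletion libraries had 2.28 to 2.87 times, InvIntra 2.25 times and InvC∆Bor 1.92 times (1.34 to 2.68) from 35 contacts. After balancing the values were 4.86 in InvC and 2.71 in BorKnockIn, against 1.58 to 2.40 in the controls, so the margin of BorKnockIn was small. From the original site InvIntra had 371 contacts with Kcnj2, 1.39 times expected raw and 0.89 times after balancing, against 0.934 to 2.10 times raw in the controls. Its bin 111380001, outside the viewpoint, gave 2.86 times (2.58 to 3.15). Against the unedited flanks InvC gave 14.9 times and BorKnockIn 9.50 times, and with coverage in the expectation they gave 4.06 and 2.19 times.

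**Figure D3:**
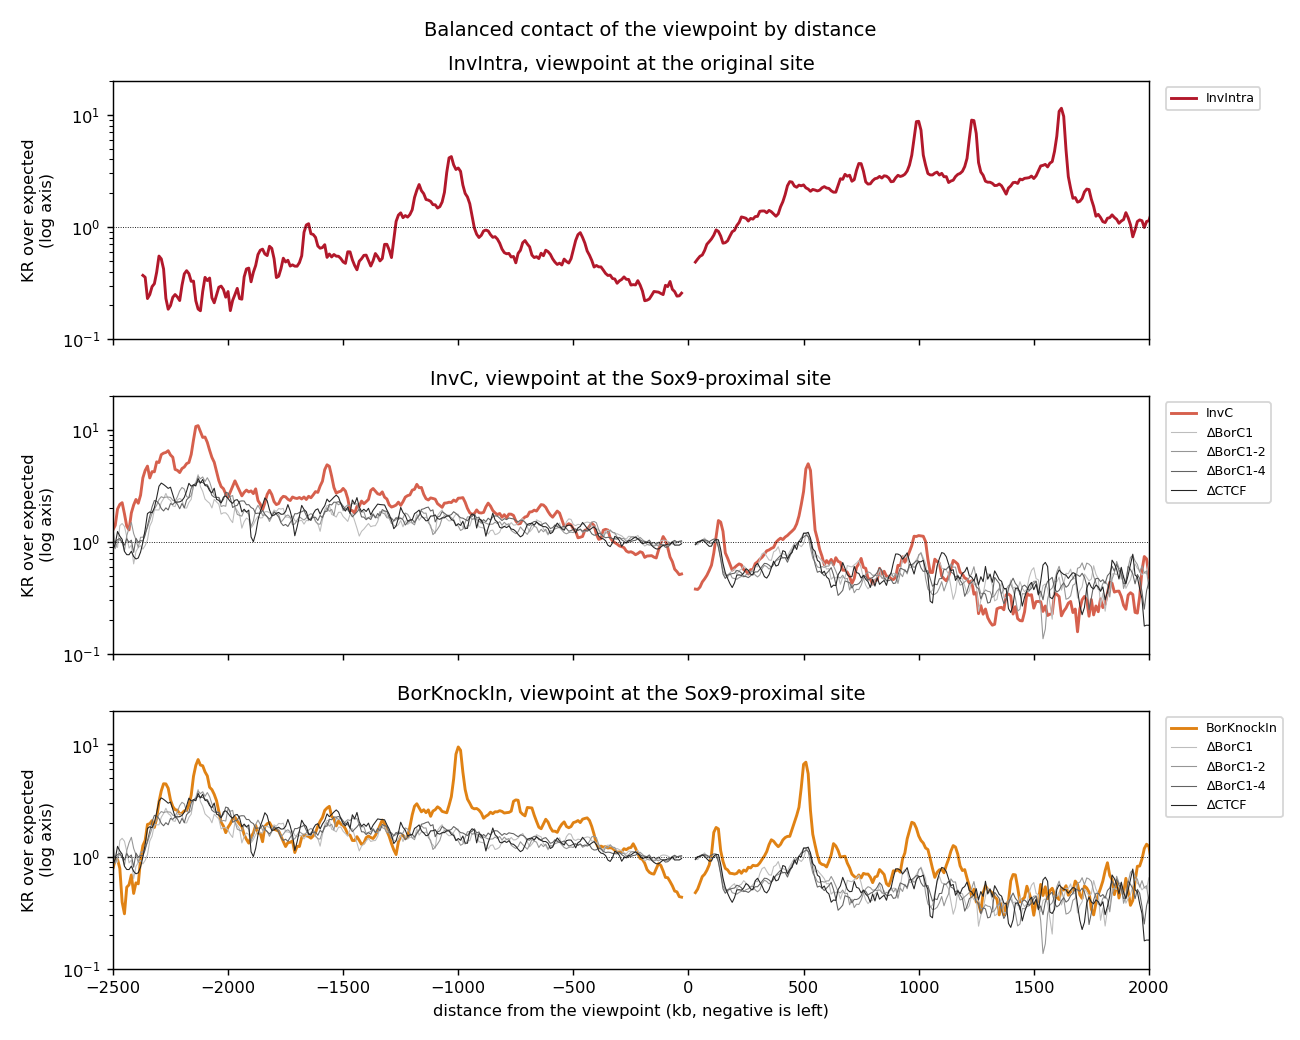
Balanced contact of the viewpoint over expected, in 30 kb windows (vertical log axis), against distance from the viewpoint (horizontal axis, kb, negative to the left), in InvIntra, InvC and BorKnockIn; thin grey and black lines are the deletion libraries at the Sox9-proximal site. InvIntra peaks 1000, 1230 and 1620 kb to the right, InvC 2130 kb to the left and 520 kb to the right, and BorKnockIn 1000 and 2130 kb to the left and 510 kb to the right.

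The desert site at 111.51 Mb was among the highest windows of 2 libraries, which place it at the same distance on opposite sides. BorKnockIn had 1588 contacts with it, 1000 kb to the left, 15.2 times expected (14.5 to 16.0). InvIntra, where the desert is turned round, had 1798 contacts with the same sequence 1000 kb to the right, 13.6 times expected (13.0 to 14.2). In the deletion libraries the Sox9-proximal viewpoint had 1.54 to 1.84 times over 980 kb. InvC and InvC∆Bor had 3.50 and 3.05 times from the original site over 980 kb, with no boundary in that viewpoint. In InvC the boundary itself lies 110 kb from this sequence, and contact was 1.69 times expected (1.59 to 1.80), against 0.739 times (0.616 to 0.880) in InvC∆Bor.

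The contact with the desert site was focal too. Bin 112490001 of BorKnockIn had 503 contacts with bin 111490001, 17.2 times expected after balancing, and bin 111390001 of InvIntra had 501 with bin 112400001, 13.9 times. The nearest genes to this sequence were not looked up, because no mm9 annotation was used here.

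A site in the left flank at 110.36 Mb, on the far side of Kcnj2, led the left side in InvC and InvIntra. InvC had 508 contacts with it over 2130 kb, 13.1 times expected (12.0 to 14.3), and BorKnockIn 337, 9.27 times (8.31 to 10.3). The deletion libraries had 3.55 to 4.17 times, InvIntra 3.75 times and InvC∆Bor 2.85 times, so this place was above expected without the boundary too. From the original site InvIntra had 656 contacts over 1030 kb, 5.38 times expected (4.97 to 5.80), while BorKnockIn had 4.40 times and the other controls 1.70 to 3.30 times.

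Contacts with 3 further sites were also measured. In the desert at 111.76 Mb, the boundary had 5.82 times expected in InvIntra (5.46 to 6.19) and 4.84 times in BorKnockIn (4.48 to 5.23), both over 750 kb. From the original site, where the desert is turned round too, InvC had 2.35 times and InvC∆Bor 1.56 times over 730 kb. The deletion libraries had 1.38 to 1.87 times from the Sox9-proximal site over 730 kb. From that site InvC had 1.92 times over 360 kb, against 0.862 times in InvC∆Bor. After balancing InvC had 1.29 times, inside the 0.693 to 1.56 times of the controls. At 112.06 Mb the boundary had 3.81 times in InvIntra and 3.26 times in BorKnockIn, both over 450 kb. The deletion libraries had 1.46 to 1.81 times from the Sox9-proximal site over 430 kb. From the original site InvC had 1.77 times and InvC∆Bor 1.64 times over 430 kb. From the Sox9-proximal site InvC had 2.64 times over 660 kb, against 1.04 times in InvC∆Bor. At 111.31 Mb, in the Kcnj2 domain, the boundary had 3.12 times in InvC and 2.92 times in BorKnockIn over 1180 kb. The controls had 0.946 to 1.49 times. InvIntra, 80 kb from that site, had 0.363 times, against 0.395 to 0.819 times in the controls at the original site, whose lowest interval overlapped it.

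**Figure D4:**
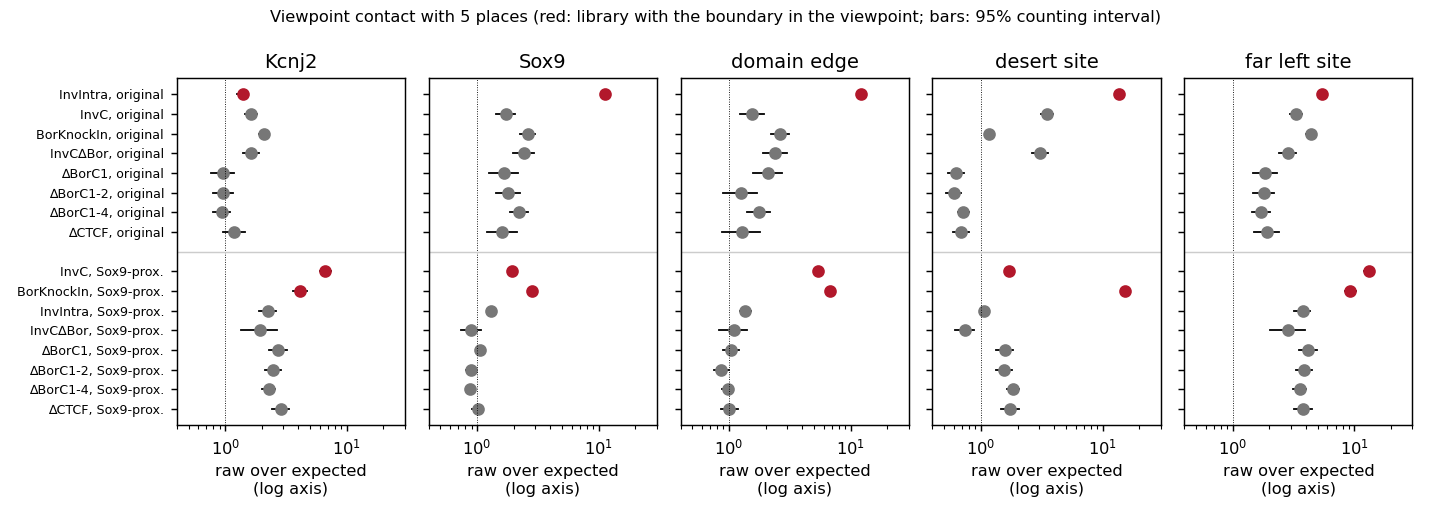
Raw contact of the viewpoint over expected (horizontal log axis) with 5 places, 1 row per library and site; red points are libraries with the boundary in the viewpoint, grey points are controls, and bars are 95% counting intervals. The red points of the domain edge lie at 12.1, 5.38 and 6.71 and the grey ones at 0.867 to 2.63.

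The bins of the boundary differed in their partners. In BorKnockIn the left bin had 18.5 times expected contact with the desert site and the right bin 11.9 times, while for the Sox9 window the left bin had 1.37 times and the right bin 4.21 times. For the domain edge the left bin had 3.76 times and the right bin 9.58 times, with intervals that do not overlap. In InvC the 3 boundary bins from left to right had 3.49, 7.22 and 7.78 times at the edge and 7.06, 6.23 and 3.71 times at Kcnj2. The intervals of its last 2 bins at the edge overlap. The orientation of the inserted boundary in BorKnockIn was not determined, so its left and right bins may not hold the sequence of those in InvC.

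InvIntra was similar with the far left site at 9.29, 7.84 and 2.84 times over bins 111380001, 111390001 and 111400001. Its contact with the edge was 5.96, 13.7 and 10.6 times, highest in the middle bin. The middle bin of InvIntra, the one that was nearly empty in the deletion libraries, had strong contact on both sides. In BorKnockIn and InvC each bin also had raw contact above expected with partners on its other side. The values given here and below were 1.24 to 11.9 times. After balancing, the left bin fell under expected with Sox9, at 0.966 times in BorKnockIn and 0.937 times in InvC.

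InvC and InvC∆Bor have the same desert order, and their shared left bin allows a closer comparison. For this bin, contact with the domain edge was 3.49 times expected in InvC (3.11 to 3.91) and 1.09 times in InvC∆Bor (0.825 to 1.42). Kcnj2 stood at 7.06 times in InvC (6.12 to 8.11) and 1.92 times in InvC∆Bor (1.34 to 2.68). The far left site stood at 13.2 times in InvC (11.7 to 15.0) and 2.85 times in InvC∆Bor (2.01 to 3.93). Sox9 was at 1.24 times in InvC (1.10 to 1.39) and 0.895 times in InvC∆Bor (0.743 to 1.07), where both intervals nearly meet. InvC∆Bor is the shallowest library, and its Kcnj2 and far left values rest on 35 and 37 contacts.

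The stretches of the locus that held the anchor's contacts also differed from the controls (plot of contact by stretch). The InvIntra viewpoint had 57.0% (56.5 to 57.4) of its contacts in the desert between both sites, against 38.5 to 48.5% in the controls. It had 7.80% (7.56 to 8.04) on the Kcnj2 side, against 22.3 to 31.5%, and 11.8% (11.5 to 12.1) from Sox9 to the domain edge, against 4.03 to 7.56%. InvC had 7.03% (6.76 to 7.31) in the stretch from the site to Sox9, against 18.0% (17.1 to 18.9) in the left bin of InvC∆Bor. It had 16.8% from Sox9 to the edge, against 12.9%, and 18.0% in the left flank, against 13.3%. With contacts of at least 100 kb only, InvC had 2.61% and InvC∆Bor 4.75% between the site and Sox9. From Sox9 to the edge this left 19.2% (18.7 to 19.6) in InvC and 18.4% (17.3 to 19.5) in InvC∆Bor, with intervals that overlap.

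BorKnockIn had 18.6% (18.2 to 19.0) from Sox9 to the edge, against 10.6 to 11.9% in the deletion libraries. The other controls at this site had 15.3% in InvIntra and 12.85% in InvC∆Bor. Between the site and Sox9 BorKnockIn had 11.4% (11.1 to 11.7), against 14.9 to 15.7% in the deletion libraries. In the left flank it had 8.54% (8.28 to 8.81), against 9.85 to 11.6%. With contacts of at least 100 kb only, the stretch between the site and Sox9 had 5.01% (4.80 to 5.24) in BorKnockIn. This was now above the 4.20 to 4.56% of the deletion libraries. InvIntra had 4.72% and InvC∆Bor 4.75%, and the InvC∆Bor interval holds the BorKnockIn value. From Sox9 to the edge BorKnockIn then had 21.2%, against 14.5 to 16.1% in the deletion libraries, 19.8% in InvIntra and 18.4% in InvC∆Bor. Contacts over more than 2 Mb made up 4.06% of all BorKnockIn contacts, the lowest share, against 4.92 to 5.71% in the deletion libraries. The part of this library difference in the left flank value was not tested.

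**Figure D5:**
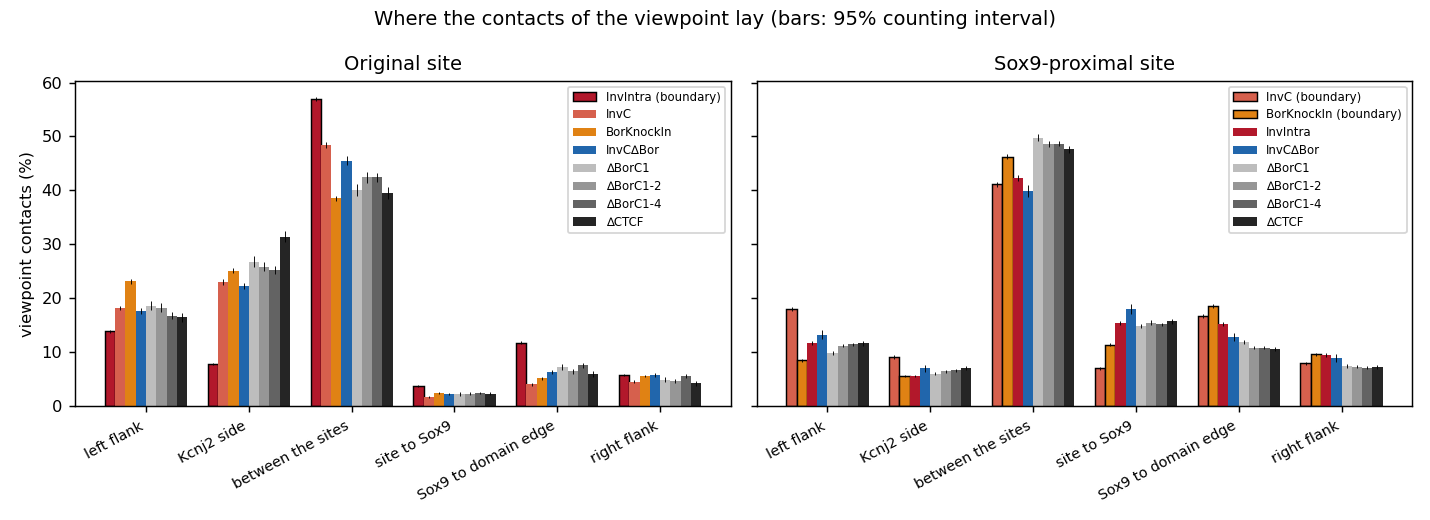
Percent of the viewpoint's contacts (vertical axis, from 0) in 6 stretches of the locus (horizontal axis) for each library at both sites; outlined bars are libraries with the boundary, and thin lines are 95% counting intervals. InvIntra has 57.0% between the sites and 7.80% on the Kcnj2 side, and the Sox9 to edge bars of InvC and BorKnockIn reach 16.8% and 18.6%.

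The whole profile was compared in 50 kb windows that held at least 20 contacts in one of the maps compared. InvC was at least 1.5 times InvC∆Bor in 26 of 109 windows, where 3.92% of windows of all other viewpoints were so, and at most 1 / 1.5 times in 15 (background 12.0%). Of the higher windows, 25 were among the 68 on the left. From viewpoints in the unedited flanks, 14.2% of windows passed in either direction, against 37.6% for the boundary viewpoint. InvC∆Bor here has only its left bin, and the count was 41 as well when InvC was also read from its left bin alone. That InvC∆Bor bin borders the emptied one, and the values compared are shares of the viewpoint's contacts. The window that starts at 112510001, beside the gap, had 0.136 times, and the median of the left windows was 1.36 times. The part of the gap in these counts was not tested.

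BorKnockIn was higher than the median of the deletion libraries in 17 of 114 windows (background 5.68%) and lower in 27 (background 10.6%). The higher windows were 7 of 68 on the left and 10 of 45 on the right, and 24 of the lower ones were on the left. Viewpoints in the unedited flanks passed in either direction in 14.0% of windows, against 38.6% for the boundary viewpoint. InvC was higher than BorKnockIn in 43 of 113 windows (background 12.4%) and lower in 16 (background 9.41%), with 42 of the higher ones on the left and all but 4 of the lower ones on the right. Unedited flank viewpoints passed in 19.6% of windows. The desert runs in opposite order in these 2 libraries. Their viewpoints lie at the same bins, but the extent of the boundary in BorKnockIn was not measured, so they may hold different parts of it.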

How the data were processed

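The authors deposited 16 maps, 2 per library, for 8 libraries. The deposited raw maps hold, for each pair of bins of 10 kb, the count of read pairs. The balanced values are a signal made by the authors with Knight-Ruiz (KR) balancing, per the deposited files, with totals near the raw totals and no scaling between libraries. The submitters' processing notes name Bowtie2 2.2.6, Juicer and mm9, and no filter is stated.

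The maps were read with pandas 2.3.3 and computed with numpy 2.4.6 under Python 3.11.15. Intervals came from scipy 1.17.1, figures from matplotlib 3.10.9. Expected contact was each library's mean at each distance, leaving out bins under 0.05 of the median coverage. Viewpoint bins with under 500 contacts were treated as empty. Intervals are exact Poisson for counts and exact Clopper-Pearson for shares. A few KR entries hold no number (7 in ∆BorC1-4, 4 in ∆BorC1, 1 in ∆CTCF) and were set to 0.

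Kcnj2 and Sox9 were placed in bins 110920001 and 112640001 from general knowledge of mm9, unchecked. Named places were these genes, the domain edge, 3 further sites and the 3 highest 30 kb windows per side, at least 100 kb away with at least 50 contacts. In BorKnockIn, Sox9 and the edge were followed 1 bin to the left. Members, places and comparisons were chosen with earlier results of these data known. The calculation was tested on 16 simulated maps. Alternatives are given in the closing section.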

Additional observations from a re-analysis of the deposited data

How the results depend on the processing

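With 1 library per genotype no replicate could be left out. No paired analysis was possible because each genotype has 1 library. Of 171 alternative values, 9 crossed 50% or the expected level. The shares by stretch and the window counts among them have no such level to cross. Without crossing, 42 of the side shares, domain edge contacts and window counts moved, as did 94 of the other values. A value with a counting interval was called moved when the alternative fell outside it. The left share of InvIntra, 22.4%, was 25.7% with KR values, 24.4% at 20 to 200 kb, 21.7% at 20 to 1000 kb, 20.9% at 50 to 500 kb, 30.9% and 15.3% for the left and right bin alone, 28.4% corrected for distance and coverage and 32.6% over 3 bins. That of InvC, 52.5%, was 57.1% at 20 to 1000 kb, 49.9% at 50 to 500 kb, 64.2% and 41.1% for the left and right bin, 54.1% corrected and 40.0% over 3 bins. That of BorKnockIn, 47.3%, was 42.1% at 20 to 200 kb, 54.5% at 20 to 1000 kb, 68.6% and 30.5% for the left and right bin and 46.0% corrected. Where these values cross 50% outside the choice of bins, the cause was not tested.

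Contact with the domain edge stayed above expected in the 3 libraries under all alternatives run. For InvIntra, BorKnockIn and InvC in this order it was 9.67, 5.48 and 4.33 times with KR values, 8.75, 4.76 and 4.41 times with a 10 kb window and 10.3, 5.97 and 4.39 times with a 50 kb window. It was 31.7, 9.02 and 6.80 times against the mean of the unedited flanks and 8.60, 5.34 and 3.99 times with coverage in the expectation. The left bin alone gave 13.7, 3.76 and 3.49 times and the right bin alone 10.6, 9.58 and 7.22 times. Over 3 boundary bins it was 10.2 times in InvIntra and 6.21 times in InvC, and at the deposited coordinate 3.11 times in BorKnockIn. Kcnj2 in InvIntra fell under expected with KR values (0.89), with coverage in the expectation (0.770) and in the right bin (0.827), and the right stripe of InvC in the left bin (0.932). Windows past the fold numbered 41 for InvC against InvC∆Bor and 12 at a fold of 2. They numbered 44 for BorKnockIn against the deletion median, 20 at a fold of 2 and 29 with at least 50 contacts. They numbered 59 for InvC against BorKnockIn and 26 at a fold of 2. The 3 boundary bins, the deposited coordinate, the left bin of both inversions, the bin by bin shares and the places followed by sequence were added after the data were seen. Depth limits InvC∆Bor most.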
